A study of Mus musculus with 16 samples.

Results

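Fabp7, Sox10, Foxd3, Erbb3, Ngfr and Ednrb are genes used to recognise Schwann cells, the glia of peripheral nerves, and the neural crest cells from which they come. They were chosen by name, and 6 of 6 were among the 13964 genes measured by RNA sequencing in heart valves of C57BL/6 mouse embryos at stage E14.5 (embryonic day). Mutant aortic valves and mutant pulmonary valves came from Jag1flox;Nkx2.5-Cre embryos, and the WT (wild-type) aortic and pulmonary valves they were compared with came from embryos labelled WT, with 4 libraries in each of the 4 groups. Jag1 encodes a ligand of Notch receptors, and Nkx2.5-Cre is a recombinase driven by the cardiac gene Nkx2-5, which removes floxed sequence in cells with a history of Nkx2-5 activity, chiefly heart muscle and endocardium. By these labels, mutant and WT embryos differ in Cre as well as in Jag1. Whether 1 or both Jag1 alleles were floxed is not given in the labels, nor is the number of embryos behind a library. Every valve was cut out by laser microdissection, and its RNA was amplified before sequencing. Within a valve, the mutant and WT libraries of the same replicate number come from 1 litter, 5 litters in all, of which 3 gave both valves. The aortic libraries were prepared as 1 batch and the pulmonary libraries as another, so that valve and library batch cannot be told apart.

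Neural crest cells leave the neural tube, and a cardiac stream of them enters the outflow tract, where they take part in dividing the great arteries and contribute to the outflow valves and the cardiac nerves. Those that settle along nerves become Schwann cell precursors, which depend on neuregulin signals from axons and give rise to Schwann cells and, in part, to melanocytes and parasympathetic neurons. Sox10 and Foxd3 are transcription factors of migrating crest and early glia. Erbb3 is the neuregulin receptor that works in a pair with Erbb2, Ngfr is the low-affinity neurotrophin receptor p75, and Ednrb is the endothelin receptor B, needed for melanocytes and enteric neurons. Fabp7 binds fatty acids in radial glia and Schwann cell precursors, and in the mouse brain it has been described as a target of Notch signalling. Erbb3, Ngfr and Ednrb are also made by cells outside the crest, Erbb3 among them in the mesenchyme of the mouse endocardial cushions.

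In the GENCODE annotation of build GRCm38, Fabp7 (ENSMUSG00000019874) lies on chromosome 10 from 57784881 to 57788450 on the plus strand, with 1250 bases of exon. Sox10 (ENSMUSG00000033006) lies on chromosome 15 from 79154908 to 79165240 on the minus strand, with 3051 bases of exon. Foxd3 (ENSMUSG00000067261), on the plus strand of chromosome 4 from 99656299 to 99658622, is a single exon of 2324 bases. Erbb3 (ENSMUSG00000018166) lies on chromosome 10 from 128567523 to 128589652, Ngfr (ENSMUSG00000000120) on chromosome 11 from 95568818 to 95587735 and Ednrb (ENSMUSG00000022122) on chromosome 14 from 103814625 to 103844402, each on the minus strand. Parts of Sox10 and Foxd3 resemble a relative: Sox10 shares 86.5% identity with Sox9 over 355 bases and Foxd3 90.5% with Foxd1 over 315 bases. The other 4 genes had no such match of at least 100 bases. Whether any of the few reads of Sox10 and Foxd3 came from these relatives was not examined.

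The promoter of Fabp7 is shown because Fabp7 had the largest differences between mutant and WT valves among the 6 genes and because the mutation is in a Notch ligand. In both valves the mean of Fabp7 was the higher in the mutant, and no link between Fabp7 and Notch signalling was tested. The window runs from 250 bases before the RefSeq start, position 57784923, which lies 42 bases inside the gene as GENCODE annotates it, to 50 bases from that start on (RefSeq, build GRCm38.p6, chr10:57784673-57784972, plus strand, 54.0% G and C). The capitals mark a match to TGGGAA, the core letters bound by the Notch partner Rbpj, here on the minus strand and therefore read as TTCCCA.

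Fabp7 promoter: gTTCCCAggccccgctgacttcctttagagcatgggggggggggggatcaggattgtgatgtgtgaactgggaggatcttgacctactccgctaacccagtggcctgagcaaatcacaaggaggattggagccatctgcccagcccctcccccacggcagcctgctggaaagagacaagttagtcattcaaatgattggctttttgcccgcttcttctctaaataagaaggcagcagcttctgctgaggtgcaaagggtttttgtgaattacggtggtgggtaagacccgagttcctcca

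The match starts 249 bases before the RefSeq start, at the edge of the window, and 25.6% of 32851 RefSeq promoters of the same length hold TGGGAA on either strand. Searched the same way on both strands, the windows of Foxd3, Ngfr and Ednrb held no TGGGAA. The letters ACAAAG, a core bound by Sox proteins, occurred in none of these 4 windows and in 18.7% of all promoters. The palindrome CAGCTG, an E-box, occurred in the window of Ngfr, 25 bases before its RefSeq start, and in 16.3% of all promoters. That start lies 37 bases inside Ngfr as GENCODE annotates it, so the match falls within the GENCODE gene. For Ednrb the RefSeq start lies 701 bases inside the gene, and for Foxd3 both starts are the same. A match of letters is a description only, and no binding was measured. The promoter table matched 4 of the 6 genes; Sox10 and Erbb3 were not matched.

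The deposited values are normalised counts, which put all libraries on 1 scale, and rest on 4.56 to 8.68 M (megareads) of recovered reads per library, where 1 read is worth 0.117 to 0.232. As a check of the labels, Jag1 was 5.93 to 11.4 in mutant aortic against 18.8 to 54.7 in WT aortic valves, and 1.85 to 12.4 in mutant pulmonary against 13.6 to 25.7 in WT pulmonary valves. The libraries also differ in what was captured. The mean log2(normalised count + 1) of 15 skeletal muscle genes, a tissue that valves should not hold, fell into a high range of 4.62 to 6.27 in 10 libraries and a low range of 0.268 to 1.94 in the other 6. The 6 low libraries were mutant aortic 4, WT aortic 2 and 4, mutant pulmonary 4, and WT pulmonary 2 and 4. Tbx20, a transcription factor of valve mesenchyme, ran from 98.0 to 976 in the 10 libraries high in skeletal muscle genes and from 1032 to 1744 in the 6 low ones, so the 2 ranges did not meet. Results that move with this split are given beside it below, and its part in them was not tested. In bulk tissue, fewer cells of a type and less RNA per cell cannot be told apart.

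Fabp7 was the gene with the widest range. Its normalised count was 91.1, 10.5, 97.4 and 1.56 in mutant aortic libraries 1 to 4, against 21.7, 3.76, 87.1 and 1.40 in WT aortic libraries 1 to 4. The pulmonary values were 325, 72.3, 38.4 and 4.57 in mutant libraries and 76.6, 20.7, 2.08 and 0.489 in WT libraries. In each of the 8 litter pairs the mutant library was the higher, yet the mutant and WT groups overlapped in both valves. The smallest of these gaps was within counting error: in aortic pair 4 the mutant value rests on 11 reads and the WT value on 8. In aortic pair 3 the exact 95% Poisson intervals overlapped, at 90.6 to 104.5 in the mutant and 80.2 to 94.5 in the WT library. In pulmonary pair 4 the mutant value rests on 37 reads, with an exact 95% Poisson interval of 3.22 to 6.30, and the WT value on 4 reads, with an interval of 0.133 to 1.25. Intervals of this kind cover counting error only, since the amplified reads need not be independent molecules.

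Over the whole table, 5.99% of genes were higher in the mutant in 4 of 4 aortic pairs, 6.67% in 4 of 4 pulmonary pairs, and 65 genes (0.466%) in all 8 pairs, Fabp7 being 1 of them. Fabp7 was also the higher in the mutant in 8 of 8 pairs when the recovered reads were scaled by their total, by their upper quartile or to equal quantiles, scalings added after the values were seen. In 2 of the 8 pairs, replicate 2 of each valve, the mutant library was high and the WT library low in skeletal muscle genes. The other 6 pairs had both libraries on the same side, and Fabp7 was the higher in the mutant in each of these 6. The mean of the neuronal genes described below was likewise the higher in the mutant in each of the 8 pairs, and its part in the values of Fabp7 was not tested.

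The mean level of Fabp7 was 50.1 ± 51.1 in mutant aortic and 28.5 ± 40.1 in WT aortic valves (SD, n = 4 each), and 110.2 ± 146 in mutant pulmonary and 25 ± 35.6 in WT pulmonary valves. In the model of all genes, which uses the spread between libraries and not the pairing, the log2 difference was 0.89 in aortic valves (SE 1.5, 95% interval -2.27 to 4.04) and 2.35 in pulmonary valves (SE 1.5, interval -0.81 to 5.51). Its mean over both valves was 1.62 (SE 1.06, interval -0.61 to 3.85). Leaving out 1 library moved the aortic difference of Fabp7 between 0.10 (without WT aortic 4) and 1.94 (without mutant aortic 4), and it was 0.07 in the 10 libraries high in skeletal muscle genes and 2.24 with library weights. The pulmonary difference ran from 1.43 (without mutant pulmonary 1) to 3.39 (without mutant pulmonary 4), and the mean from 1.16 to 2.14. None passed the test at an adjusted p of 0.05, which 0% of the 13963 genes tested did in these comparisons (limma, Benjamini-Hochberg adjusted p = 1.00 for each; unadjusted p = 0.144 for the mean). With litter as a block, the mean difference was the same and its adjusted p was 0.779 in limma; with library weights it was 2.81 (limma, adjusted p = 0.545).

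Fabp7 varied between libraries more than almost any gene of similar level. The SD of its log2(normalised count + 1) over the 16 libraries was 2.41, against a median SD of 0.52 for 2660 genes of similar mean, 99.6% of which varied less than Fabp7. For the other 5 genes that share ran from 67.4% for Foxd3 to 85.2% for Ngfr.

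**Figure D1:**
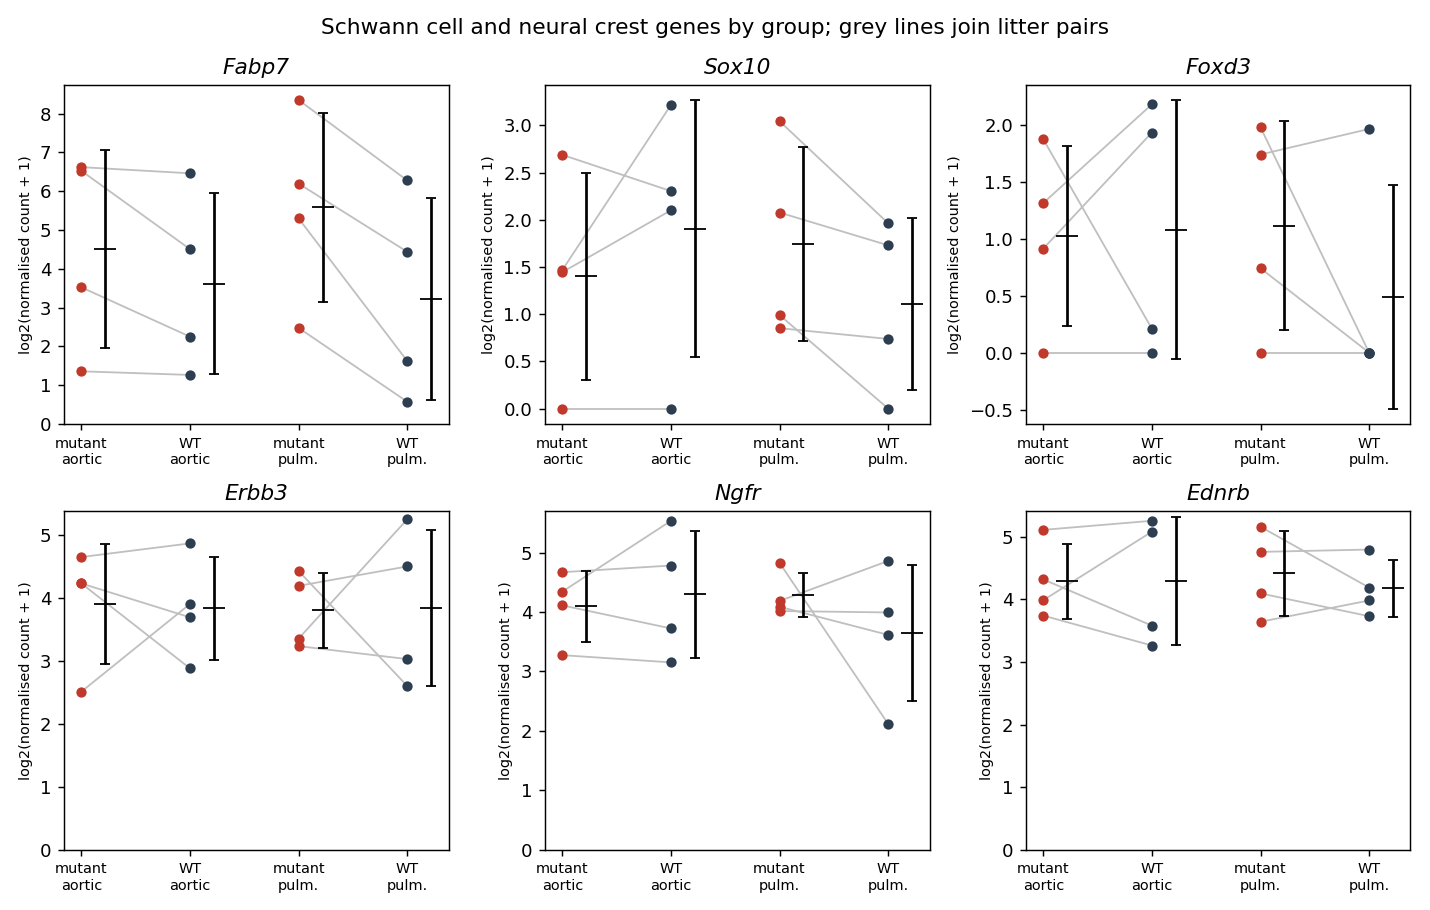
Each panel plots log2(normalised count + 1) of 1 gene in the mutant and WT libraries of each valve (points), with grey lines joining the mutant and WT library of a litter and black bars giving the mean ± SD (n = 4). The lines of Fabp7 all slope down towards WT, although its points run from 0.489 to 325 normalised counts within and across groups, while the lines of Erbb3, Ngfr and Ednrb cross.

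Sox10, the transcription factor that defines the Schwann cell lineage throughout its life, was scarce. It was 5.45, 1.72, 1.77 and 0 in mutant aortic libraries against 3.94, 3.29, 8.30 and 0 in WT aortic libraries, and 7.25, 0.805, 3.22 and 0.988 in mutant pulmonary libraries against 2.90, 0.668, 2.32 and 0 in WT pulmonary libraries. These values rest on 0 to 62 reads, and in the 3 libraries with no read, the limit for a count of 0, taken as 3 reads, is a level of 0.367 to 0.526, and the exact 95% Poisson interval reaches 0.451 to 0.647. In the pulmonary valve the mutant library was the higher in 4 of 4 pairs, but by 1 read in the smallest of them, 6 reads against 5. In the aortic valve it was the higher in 1 pair and the lower in 2, with 1 pair tied at 0.

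The log2 difference of Sox10 was -0.51 (SE 0.73, interval -2.05 to 1.04) in aortic and 0.63 (SE 0.73, interval -0.91 to 2.17) in pulmonary valves, and neither passed the test (limma, adjusted p = 1.00). Means were 2.23 ± 2.29 in mutant aortic and 3.88 ± 3.41 in WT aortic valves, and 3.07 ± 3.0 in mutant pulmonary and 1.47 ± 1.36 in WT pulmonary valves (SD, n = 4 each). Sox10 therefore had mean differences of opposite sign in the 2 valves, as did 48.2% of all genes.

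Foxd3, which acts before Sox10 in early crest and is lost from maturing glia, was lower still and had no read in 6 of the 16 libraries. Its values were 1.49, 2.66, 0.883 and 0 in mutant aortic libraries against 3.53, 0.157, 2.82 and 0 in WT aortic libraries. They were 2.34, 0.671, 2.94 and 0 in mutant pulmonary libraries against 2.90, 0, 0 and 0 in WT pulmonary libraries. At most 26 reads stand behind any of them. The log2 differences were -0.06 (SE 0.65, interval -1.44 to 1.33) in aortic and 0.62 (SE 0.65, interval -0.76 to 2.00) in pulmonary valves (limma, adjusted p = 1.00 for both).

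The 3 receptors were found in every library at moderate levels. Erbb3 was 4.70, 24.1, 17.8 and 17.8 in mutant aortic against 14, 28.2, 6.37 and 11.9 in WT aortic libraries, and 8.42, 20.5, 9.24 and 17.3 in mutant pulmonary against 7.16, 5.07, 37.1 and 21.7 in WT pulmonary libraries. The mutant library was the higher in 2 of 4 pairs of each valve, and the log2 differences were 0.07 (SE 0.60, interval -1.20 to 1.33) and -0.04 (SE 0.60, interval -1.31 to 1.22). The estimates for Erbb3 lie close to 0 in both valves, and their intervals still allow a difference of more than 1 log2 unit either way.

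Ngfr was 19.3, 16.3, 24.5 and 8.68 in mutant aortic against 45.4, 12.2, 26.5 and 7.90 in WT aortic libraries, and 16, 27.4, 17.2 and 15.2 in mutant pulmonary against 11.3, 3.34, 28.0 and 14.9 in WT pulmonary libraries. The high value of mutant pulmonary library 2 and the low value of its WT litter mate made the widest pulmonary gap. The log2 differences were -0.20 (SE 0.55, interval -1.37 to 0.97) in aortic and 0.63 (SE 0.55, interval -0.54 to 1.8) in pulmonary valves.

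Ednrb was the steadiest of the 6. It was 14.9, 19.0, 33.6 and 12.4 in mutant aortic against 32.9, 11, 37.2 and 8.60 in WT aortic libraries, and 26.1, 34.8, 16.1 and 11.5 in mutant pulmonary against 26.8, 17.2, 12.3 and 14.8 in WT pulmonary libraries. The log2 differences were -0.01 (SE 0.47, interval -1.01 to 0.99) and 0.24 (SE 0.47, interval -0.76 to 1.24). None of the 3 receptors passed the test in either valve (limma, adjusted p = 1.00 for each), and mutant and WT groups overlapped in all 12 combinations of the 6 genes and 2 valves. Over all genes, groups did not overlap for 1.58% in the aortic and 1.98% in the pulmonary valve.

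**Figure D2:**
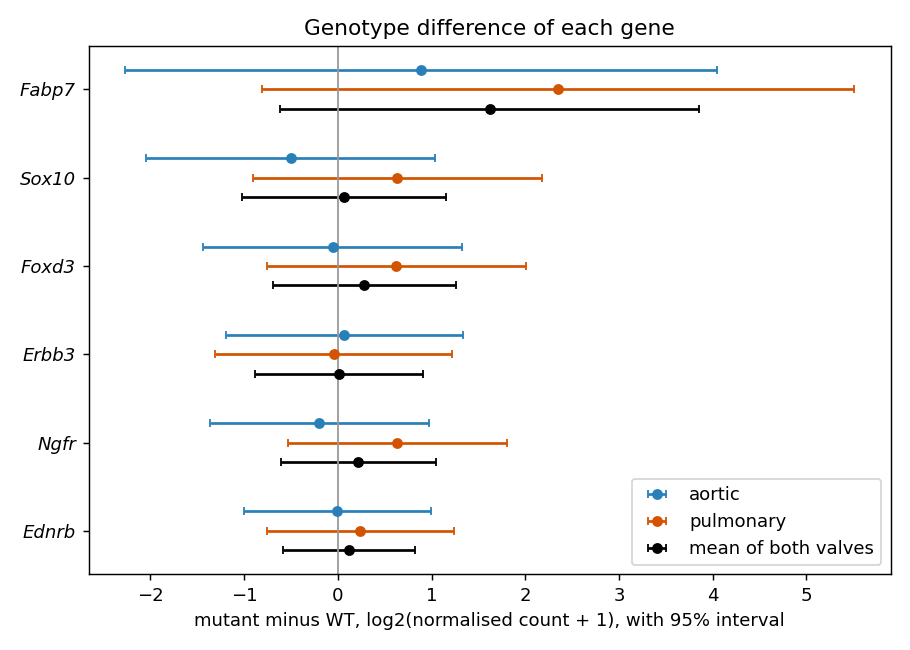
Points give the log2 difference, mutant minus WT, of each gene in the aortic valve, in the pulmonary valve and as the mean of both, and bars give the 95% interval from the model of all genes (16 libraries). Every interval includes 0; Fabp7 has the largest estimates (0.89, 2.35 and 1.62) and the widest bars.

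The threshold of an adjusted p of 0.05 was passed by 0 of the 6 genes and by 0% of 13963 genes tested, in aortic, pulmonary and mean comparisons alike (limma). At an unadjusted p under 0.05, limma counted 1.4% of genes in aortic valves, 3.13% in pulmonary valves and 2.79% for the mean, and 0 of the 6 genes in each. On the recovered reads, edgeR called 0 genes in these comparisons and DESeq2 called 0, 2 and 5, none of them 1 of the 6. The pulmonary difference exceeded the aortic one for Fabp7 by 1.47 (SE 2.12), for Sox10 by 1.14 (SE 1.03), for Ngfr by 0.83 (SE 0.78), for Foxd3 by 0.68 (SE 0.92) and for Ednrb by 0.25 (SE 0.67), on the log2 scale. For Erbb3 it was lower, at -0.11 (SE 0.85). The test of this difference of differences was passed by 0 of the 6 genes and by 0% of all genes (limma, adjusted p), with 1.89% of all genes at an unadjusted p under 0.05.

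Between the valves, the mutant log2 differences, pulmonary minus aortic, were 1.07 for Fabp7, 0.34 for Sox10, 0.09 for Foxd3, -0.10 for Erbb3, 0.18 for Ngfr and 0.13 for Ednrb. The WT differences were -0.39 for Fabp7, -0.80 for Sox10, -0.59 for Foxd3, 0.01 for Erbb3, -0.65 for Ngfr and -0.12 for Ednrb. None passed (limma, 0% of all genes called at an adjusted p under 0.05 in mutants and in WT; at an unadjusted p under 0.05 the share was 0.48% in mutants and 1.1% in WT), and here valve and library batch cannot be told apart.

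Per kilobase of exon, which allows levels of different genes to be set side by side, Fabp7 led in every group, with means of 40.1 in mutant aortic, 22.8 in WT aortic, 88.1 in mutant pulmonary and 20.0 in WT pulmonary valves. Ngfr and Ednrb followed and lay close together, at 4.99 and 4.67 in mutant aortic, 6.67 and 5.25 in WT aortic, 5.5 and 5.18 in mutant pulmonary, and 4.18 and 4.17 in WT pulmonary valves. Erbb3 came next, at 2.31 to 2.95, ahead of Sox10 at 0.482 to 1.27 and Foxd3 at 0.312 to 0.700. Neighbours in this order overlapped in the ranges of their per-kilobase values in each of the 4 groups. This includes Fabp7 with Ngfr and Ednrb, because the lowest libraries of Fabp7 fell into or below their ranges.

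The 6 genes divided by their values in libraries high and low in skeletal muscle genes. Fabp7 had a lowest, median and highest value of 2.08, 74.5 and 325 in the 10 high libraries and of 0.489, 2.66 and 20.7 in the 6 low ones. Sox10 had 0.805, 3.06 and 8.30 in the high libraries, none of them at 0, and 0, 0.334 and 3.29 in the low ones, 3 of them at 0. Foxd3 had a median of 2.5 and 1 library at 0 on the high side, and in the low libraries 5 of 6 were at 0 and the other was at 0.157, a single read. Fabp7, Sox10 and Foxd3 thus had lower medians in the libraries with the least skeletal muscle signal and the most Tbx20.

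Of the receptors, Ngfr and Ednrb also had lower medians in the low libraries, by a smaller fold, and Erbb3 did not. Ngfr had 11.3, 21.9 and 45.4 on the high side and 3.34, 10.4 and 15.2 on the low side, and Ednrb had 12.3, 26.4 and 37.2 against 8.60, 11.9 and 17.2. Erbb3 had 4.70, 11.6 and 37.1 against 5.07, 17.5 and 28.2, so its median was the higher on the low side. These are descriptions of libraries sorted by a measured property and carry no test.

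Other genes of the same lineages went both ways. Of 15 measured Schwann lineage genes 10 had the higher median in the high libraries and 5 in the low ones, and the mean log2(normalised count + 1) of the list overlapped, at 3.04 to 3.62 against 2.82 to 3.30. Of 15 neural crest regulators 6 had the higher median in the high libraries and 9 in the low ones, with list means of 4.31 to 5.57 against 4.49 to 4.98. Of 15 receptor and ligand partners 5 had the higher median in the high libraries and 10 in the low ones. The genes named next were picked with their values in view. Of the Schwann cell genes, the myelin gene Mbp was 0 to 18.5 in the high libraries against 0 to 3.29 in the low ones, and S100b was 1.74 to 10.05 against 0.142 to 3.21. Of the crest transcription factors, Zic1 was 4.86 to 61.6 against 0.157 to 1.85 and Sox8 was 8.61 to 39.2 against 0.569 to 6.74, both without overlap, and Tfap2b was 0 to 66.6 against 0 to 0.470. The share of all measured genes that separate by this split, or have the higher median on either side, was not counted. These values therefore do not set the listed genes apart from other genes. Edn3, the ligand of Ednrb, was 3.58 to 25.02 against 0 to 2.04.

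Other genes of these lists ran the other way. Hand2, a factor of crest-derived and cardiac mesenchyme, was 6.65 to 49.1 in the high libraries and 72.3 to 114.9 in the low ones. The neurotrophin receptor Ntrk2 was 20.3 to 61.4 against 49.7 to 120.4, and Dhh, a ligand made by Schwann cells and by endothelium, was 1.71 to 26.3 against 22 to 46.6. Erbb2, the partner of Erbb3, was 11 to 27.7 against 13.5 to 36.3.

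**Figure D3:**
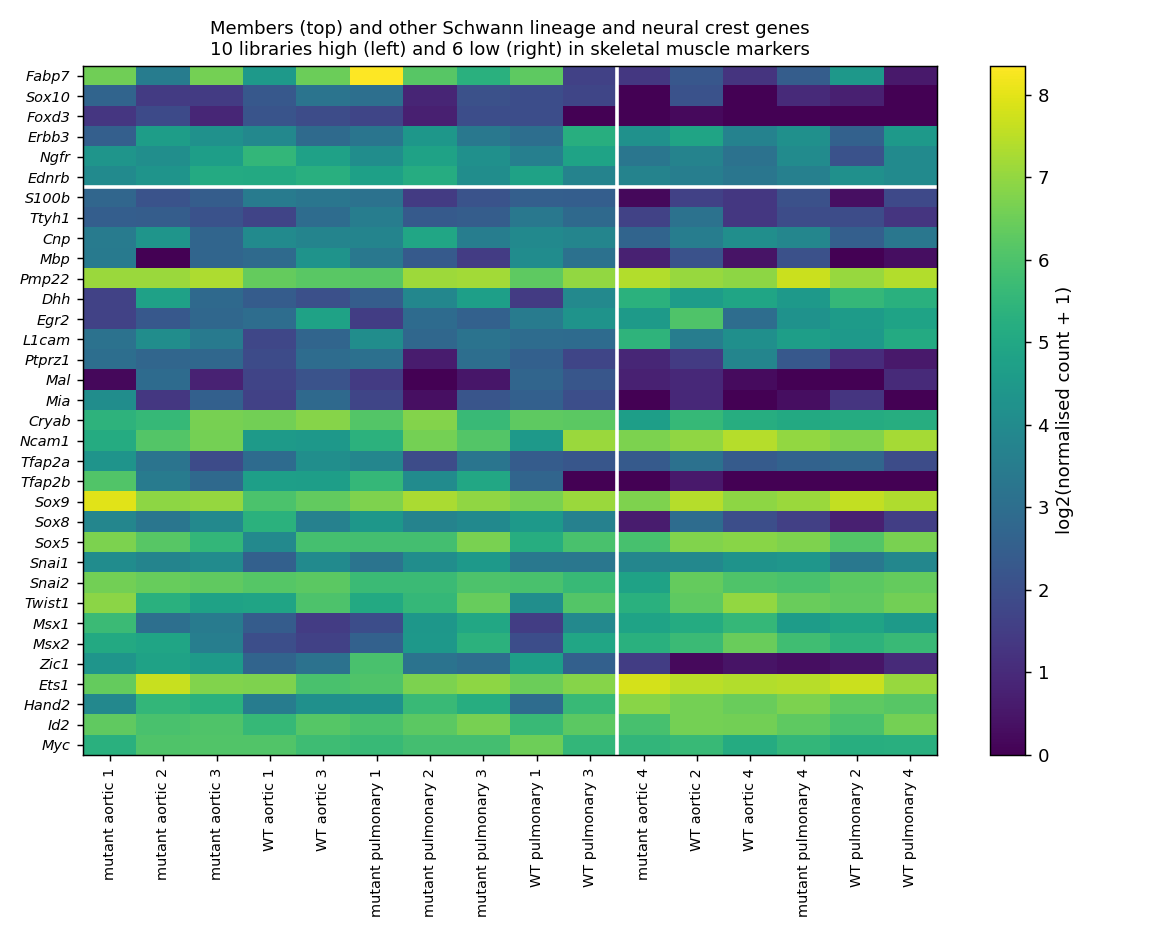
Colour gives log2(normalised count + 1) of the 6 genes (above the white horizontal line) and of other measured Schwann lineage and neural crest genes in each library, with the 10 libraries high in skeletal muscle genes left of the white vertical line and the 6 low ones right of it. Foxd3, Tfap2b and Zic1 are dark throughout the right block, whereas Hand2, Dhh and Pmp22 are as bright there or brighter.

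The neuronal genes moved with the same libraries. The mean log2(normalised count + 1) of 13 measured neuronal genes was 2.61 to 5.94 in the 10 libraries high in skeletal muscle genes and 1.85 to 2.63 in the 6 low ones. By group it averaged 3.80 in mutant aortic and 2.90 in WT aortic, and 3.91 in mutant pulmonary and 2.80 in WT pulmonary valves, while the skeletal muscle mean averaged 3.84 and 3.48 in mutant and WT aortic, and 3.87 and 2.94 in mutant and WT pulmonary valves. Both lists were thus higher on average in mutant libraries, as Fabp7 was. The neuronal mean was the higher in the mutant library of every litter pair, by least in aortic pair 3 (4.71 in the mutant against 4.67 in WT). The part of both lists in the values of Fabp7 was not tested. With the skeletal muscle mean as a covariate, the mean difference of Fabp7 was 1.18 (limma, adjusted p = 0.966), against 1.62 without it. Within the 10 high libraries it was 1.37 (limma, adjusted p = 0.808). Within the 6 low ones, which hold 1 mutant and 2 WT libraries of each valve, it was -0.21. Replicate 4 of each valve had both libraries of the pair low. There Fabp7 was 1.56 in mutant against 1.40 in WT aortic, within counting error, and 4.57 against 0.489 in pulmonary valves. The other low WT libraries, aortic 2 (3.76) and pulmonary 2 (20.7), had their mutant litter mates among the high libraries. On both sides of the split the mean differences of Sox10 (-0.37 high, -0.21 low), Foxd3 (-0.093 high, -0.053 low) and Ednrb (-0.14 high, -0.062 low) were below 0, against 0.06, 0.28 and 0.12 over all 16 libraries, and none passed the test.

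Within the 10 libraries high in skeletal muscle genes, Fabp7 went with the neuronal mean at Pearson r = 0.76 (permutation p = 0.0119, adjusted 0.134) and Spearman rho = 0.76 (permutation p = 0.0151, adjusted 0.213). Without the 2 libraries farthest from the median of the neuronal mean, r was 0.34. Their removal also narrows the range of that mean, so the lower r cannot show whether those libraries alone carry the relation. Within the 6 low libraries r was 0.93 (exact permutation p = 0.00833, adjusted 0.375) and rho was 0.89 (exact permutation p = 0.0333, adjusted 1.00). There r was 0.98 over the 4 libraries left without the 2 farthest. Sox10 ran against the mean of the valve mesenchyme genes in the 10 high libraries, at r = -0.81 (permutation p = 0.00582, adjusted 0.134) and rho = -0.72 (permutation p = 0.0227, adjusted 0.213), with r = -0.80 without the 2 farthest libraries. In the 6 low libraries the same relation had r = 0.18 (exact permutation p = 0.717, adjusted 0.938) and rho = 0.03 (exact permutation p = 1.00, adjusted 1.00), so it was not seen there. Erbb3 went with the endothelial mean in the 10 high libraries, at r = 0.78 (permutation p = 0.0105, adjusted 0.134) and rho = 0.85 (permutation p = 0.00290, adjusted 0.130), with r = 0.74 without the 2 farthest, and about as closely with the valve mesenchyme mean, at r = 0.77 (permutation p = 0.0116, adjusted 0.134) and rho = 0.72 (permutation p = 0.0237, adjusted 0.213), with r = 0.72 without the 2 farthest. In the 6 low libraries the relation of Erbb3 with the endothelial mean had the opposite sign, at r = -0.27 (exact permutation p = 0.601, adjusted 0.909) and rho = -0.43 (exact permutation p = 0.419, adjusted 1.00). With the valve mesenchyme mean Erbb3 had r = -0.12 there (exact permutation p = 0.806, adjusted 0.938) and rho = 0.09 (exact permutation p = 0.919, adjusted 1.00). All tests were two-sided, 45 relations were computed on each side of the split, and none passed 0.05 after adjustment. Each library batch held only 5 of the 10 high libraries, too few for a value within a batch.

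**Figure D4:**
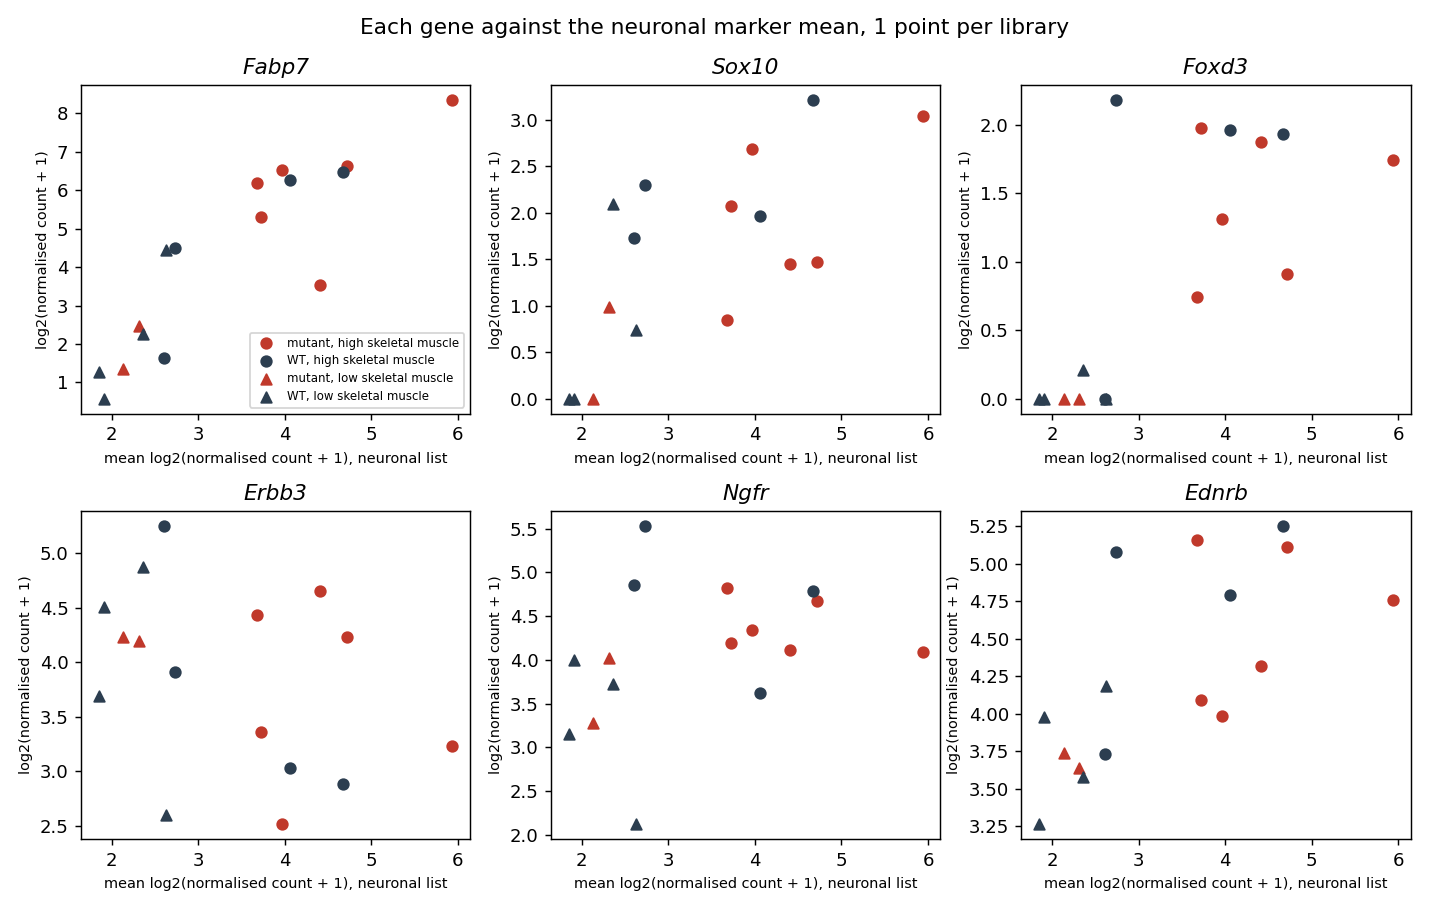
Each panel plots log2(normalised count + 1) of 1 gene against the mean of the neuronal genes on the same scale, with 1 point per library, coloured by genotype and shaped by side of the skeletal muscle split. Fabp7 is 0.489 to 20.7 normalised counts in the 6 low libraries (triangles, neuronal mean 1.85 to 2.63) and 2.08 to 325 in the 10 high ones (circles), with its highest value in the library at a neuronal mean of 5.94.

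The genes whose log2 values followed each gene most closely over the 16 libraries were looked up among 10624 genes with a mean of at least 5, as a description with no test, since all 16 points share the split in skeletal muscle. For Fabp7 they were Elavl2, an RNA-binding protein of neurons (r = 0.94), Ppp2r2b, a brain-enriched phosphatase subunit (r = 0.93), and Cdr1 (r = 0.92). Sox10 was followed by Ubb (r = 0.92), Rnf144a and Selenow (r = 0.90 for both), and Foxd3 by Six2 (r = 0.94), Gemin6 and Cbx5 (r = 0.93 for both). Erbb3 was followed by Tep1 (r = 0.88), Pprc1 (r = 0.84) and Arhgap10 (r = 0.82), Ngfr by Flnc (r = 0.89), Kars (r = 0.88) and Jpt2 (r = 0.87), and Ednrb by Sdhd (r = 0.95) and Atp5b (r = 0.89). None of these genes was named for more than 1 of the 6.

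Wider lists of the same pathways held no gene that passed the test in any direction in the aortic, pulmonary or mean comparison (limma, 0% of all genes called). Of 21 listed receptor and ligand partners 15 were measured, and their mean log2 differences over both valves lay above 0 for 10 and below 0 for 5, with a median of 0.11. Over all genes, 52.2% lay above 0, with a median of 0.01. The neuregulin Nrg1, the ligand of Erbb3, was 22.8 ± 26.0 in mutant aortic and 12.6 ± 11.1 in WT aortic, and 21.0 ± 11.7 in mutant pulmonary and 18.8 ± 19.2 in WT pulmonary valves (SD, n = 4 each). Ntrk2, a receptor that Ngfr can pair with, was 43.3 ± 21.4 in mutant aortic and 60.0 ± 41.1 in WT aortic, and 42.6 ± 24.0 in mutant pulmonary and 65.6 ± 30.0 in WT pulmonary valves. In the 10 libraries high in skeletal muscle genes Ntrk2 was 20.3 to 61.4, against 49.7 to 120.4 in the 6 low ones. Nrg1 was 1.04 to 28.5 against 7.48 to 60.6. Of the 6 low libraries 4 are WT, and the part of that split in these differences was not tested.

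Of 21 listed Schwann lineage genes 15 were measured, 8 with a mean difference above 0 and 7 below it, with a median of 0.03. Egr2, the transcription factor that drives myelination, had the smallest p of the list and a mean log2 difference of -1.43 (SE 0.52; limma, unadjusted p = 0.0140, adjusted p = 1.00). Egr2 is also an early-response gene in many other cells. It was 8.60 ± 9.38 in mutant aortic and 26.4 ± 27.3 in WT aortic, and 7.94 ± 7.17 in mutant pulmonary and 20.0 ± 7.58 in WT pulmonary valves. Egr2 also moved with the skeletal muscle split, at 1.87 to 27.0 in the 10 high libraries against 6.84 to 64.9 in the 6 low ones, 4 of which are WT, and the part of that split in its difference was not tested. Pmp22, a myelin protein made by many mesenchymal cells, was 149 ± 16.4 in mutant aortic and 102 ± 28.5 in WT aortic, and 141 ± 54.5 in mutant pulmonary and 126 ± 37.3 in WT pulmonary valves.

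Of 17 listed neural crest regulators 15 were measured, 12 with a mean difference above 0 and 3 below it, with a median of 0.20. Zic1, active in the dorsal neural tube and early crest, was 17.6 ± 11 in mutant aortic and 3.45 ± 3.82 in WT aortic, and 19.2 ± 28.5 in mutant pulmonary and 7.70 ± 11.4 in WT pulmonary valves, a mean log2 difference of 1.56 (SE 0.80; limma, adjusted p = 1.00). Tfap2b, a crest and smooth muscle factor, was 20.7 ± 30.8 in mutant aortic and 12.5 ± 14.2 in WT aortic, and 23.1 ± 19.8 in mutant pulmonary and 1.41 ± 2.81 in WT pulmonary valves, a mean log2 difference of 1.79 (SE 0.99; limma, adjusted p = 1.00). Both are among the genes near 0 in the libraries low in skeletal muscle genes. Of 9 listed melanocyte genes only Mitf, Kit and Tyr were measured, with mean log2 differences of -0.41, 0.37 and -0.05.

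Of 20 listed neuronal genes 13 were measured, 11 with a mean difference above 0 and 2 below it, with a median of 0.91. Syt4, a synaptic vesicle protein, was 5.70 ± 2.22 in mutant aortic and 1.44 ± 1.30 in WT aortic, and 10.8 ± 11.6 in mutant pulmonary and 1.95 ± 2.97 in WT pulmonary valves, a mean log2 difference of 1.84 (SE 0.47; limma, unadjusted p = 0.00125, adjusted p = 1.00). For Elavl3, a neuronal RNA-binding protein, it was 2.01 (SE 0.78; limma, adjusted p = 1.00). Elavl3 was 0.679 to 58.1 in the 10 libraries high in skeletal muscle genes against 0 to 0.711 in the 6 low ones. Syt4 was 0 to 28.2 against 0 to 6.28. The part of that split in these differences was not tested. Of 15 skeletal muscle genes 14 lay above 0 and 1 below it, with a median of 0.79. The lists of valve mesenchyme (2 above 0 and 8 below it, median -0.18), endothelium (7 and 3, median 0.26) and heart muscle (5 and 3, median 0.05) were closer to 0.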

How the data were processed

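Libraries were made per the labels' protocols with the Arcturus PicoPure kit, the Ovation RNA-Seq System V2 and TruSeq reagents. Per the submitters' processing notes, reads were handled with RSEM 1.2.3, cutadapt 1.6, CASAVA 1.8.2 and FastQC on build GRCm38; the scaling and any filter are not stated in the labels. What the authors deposited is 1 table of normalised signal, with a column per library. Its values are whole multiples of 1 step per library, and 100% came within 0.05 of a whole number of reads. RSEM shares reads between similar genes. Gene symbols came from the reference annotation, matched for 13780 of 13964 IDs.

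The test was limma 3.58.1 (R 4.3.3, mean-variance trend, two-sided, Benjamini-Hochberg) on log2(value + 1), in 1 model of 4 group means over 16 libraries; folds on this scale understate the change of low genes. Genes with a value under 1 in all but 3 or fewer libraries were dropped, leaving 13963 with the 6 described here. edgeR 4.0.16 and DESeq2 1.42.0 on the recovered reads, other pseudocounts, filters and scalings, library weights, litter as a block, a skeletal muscle covariate, the 2 sides of the widest gap in the skeletal muscle mean, and leaving out each library were alternatives. Scripts were tested on simulated data. Same-numbered libraries of a valve share a litter per the labels; their deviations from the group means correlated at 0.48, 0.01, 0.20 and 0.64 in aortic and 0.49, -0.03, 0.07 and 0.45 in pulmonary pairs. Nothing says whether libraries of the 2 valves share embryos, so p-values measure the spread between these libraries. Up to 4 genes of each list with the smallest p for the mean difference were eligible to be named; genes given by their range in libraries high and low in skeletal muscle were picked with their values in view. The 6 genes and the gene lists were chosen with earlier results of these data known. Values of a few other genes are not reported here.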

Additional observations from a re-analysis of the deposited data

Results flagged for a closer look

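With 24 groups of 4 libraries examined, 1 for each gene and group, chance would mark about 1 in 20 for a library far from the others if values were normally distributed. Each group mixes libraries high and low in skeletal muscle genes, and some counts are 0, so that rate need not hold here. In WT pulmonary valves Foxd3 was 2.90 in library 1 and 0 in the other 3 libraries, 2 of which were low in skeletal muscle genes. In mutant pulmonary valves Ngfr was 27.4 in library 2, against 15.2 to 17.2 in the other 3.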

How the results depend on the processing

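None of the 36 differences described for the 6 genes passed the threshold under any alternative, where the smallest adjusted p was 0.545 (Fabp7, mean difference with library weights, limma), and 47 of 468 values changed sign. Fabp7 changed sign in no setting but the 6 libraries low in skeletal muscle genes and, for the WT valve difference, when single libraries were left out; its mean difference ran from -0.21 to 2.81 over the alternatives and from 1.16 to 2.14 when each library was left out in turn, against 0.10 to 1.94 for its aortic and 1.43 to 3.39 for its pulmonary difference. Litter, used as a block of 5 levels of which 3 held libraries of both valves, left each mutant minus WT estimate as it was. It changed no call of the 6 genes (Fabp7, pulmonary difference 2.35, limma, adjusted p = 0.876). Each sign change follows, and its cause was not tested. With DESeq2, the mean difference was -0.13 for Erbb3 and -0.022 for Ngfr. With edgeR, the mean difference was -0.13 for Erbb3 and -0.0082 for Ngfr. In the 10 libraries high in skeletal muscle genes, the mean difference was -0.14 for Ednrb, -0.031 for Erbb3, -0.093 for Foxd3, -0.33 for Ngfr and -0.37 for Sox10 and the mutant valve difference was -0.0079 for Ngfr. The 6 libraries low in them hold 1 mutant and 2 WT libraries of each valve, so not every WT library there has its mutant litter mate. In these 6, the aortic difference was 0.32 for Ednrb, -0.049 for Erbb3 and -0.40 for Fabp7, the pulmonary difference was -0.44 for Ednrb, 0.64 for Erbb3 and -0.030 for Fabp7 and the mean difference was -0.062 for Ednrb, -0.21 for Fabp7, -0.053 for Foxd3 and -0.21 for Sox10. In the same setting, the pulmonary minus aortic difference of the mutant effect was -0.76 for Ednrb and 0.69 for Erbb3, the WT valve difference was 0.66 for Ednrb, -0.73 for Erbb3 and 0.75 for Fabp7 and the mutant valve difference was -0.10 for Ednrb. With library weights, the aortic difference was 0.60 for Ednrb, -0.050 for Erbb3, 0.37 for Foxd3 and 0.31 for Ngfr, the mean difference was -0.12 for Erbb3 and the pulmonary minus aortic difference of the mutant effect was -0.13 for Ednrb. In the same setting, the WT valve difference was 0.12 for Ednrb and -0.070 for Erbb3 and the mutant valve difference was -0.013 for Ednrb. With a pseudocount of 0.25, the aortic difference was 0.0020 for Ednrb and 0.070 for Foxd3 and the WT valve difference was -0.0044 for Erbb3. With a pseudocount of 5, the mean difference was -0.0081 for Erbb3. With quantile scaling, the aortic difference was 0.0015 for Ednrb and the mean difference was -0.019 for Erbb3 and -0.067 for Sox10. With the skeletal muscle covariate, the mean difference was -0.014 for Ednrb and -0.15 for Sox10 and the WT valve difference was -0.0078 for Erbb3. With the litter block, the WT valve difference was -0.14 for Erbb3 and the mutant valve difference was -0.16 for Ngfr. Leaving out 1 library at a time changed the sign of 69 of 576 values. The aortic difference then ran from -0.35 to 0.31 for Ednrb, -0.25 to 0.53 for Erbb3, -0.42 to 0.31 for Foxd3 and -0.58 to 0.21 for Ngfr. The pulmonary difference then ran from -0.0088 to 0.50 for Ednrb and -0.46 to 0.43 for Erbb3. The mean difference then ran from -0.055 to 0.28 for Ednrb, -0.19 to 0.25 for Erbb3, -0.037 to 0.42 for Ngfr and -0.25 to 0.30 for Sox10. The pulmonary minus aortic difference of the mutant effect then ran from -0.074 to 0.59 for Ednrb and -0.58 to 0.36 for Erbb3. The WT valve difference then ran from -0.46 to 0.20 for Ednrb, -0.46 to 0.42 for Erbb3 and -1.41 to 0.56 for Fabp7. The mutant valve difference then ran from -0.12 to 0.40 for Ednrb, -0.57 to 0.15 for Erbb3, -0.25 to 0.46 for Foxd3, -0.10 to 0.37 for Ngfr and -0.13 to 0.77 for Sox10. The number of genes past the threshold, 0 in each comparison, became 2 in pulmonary valves and 5 for the mean with DESeq2, 1 for the mean with the litter block, 2 for the mean with the skeletal muscle covariate, 3 in aortic valves, 2 in pulmonary valves and 3 for the mean in the 10 libraries high in skeletal muscle genes, and 3, 1 and 3 for the same comparisons in the 6 low ones. Leaving out single libraries gave 0 to 2 in aortic valves (2 without WT aortic 4) and 0 to 3 for the mean (3 without WT aortic 4, 2 without WT pulmonary 2). No gene among them was 1 of the 6. The depth limits Sox10 and Foxd3 most, with at most 62 and 26 reads in any library.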
